A study of Mus musculus with 6 samples.

Results

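C-type lectin receptors of myeloid cells were examined in mouse bone marrow-derived eosinophils treated with vesicles of TH2 cells. The members are the 10 genes Clec4a2, Clec4a3, Clec4d, Clec4e, Clec4n, Clec5a, Clec7a, Clec10a, Clec12a and Mgl2, found by symbol among the 16254 genes of the deposited count table, and all 10 were present and could be tested. Bone marrow of C57BL/6 mice aged 6 to 12 weeks was cultured with FLT3 ligand and stem cell factor and then with IL-5. On culture day 12 the cells received extracellular vesicles (EVs) from activated TH2 cells at 5e9 EVs per ml (EV, n = 3) or unconditioned medium carried through the same isolation (sham, n = 3), and RNA was taken after 24 h. The cultures were unsorted in the sources used here, each library is a biological replicate by its label, and whether same-numbered replicates share an animal is not stated. The study's description can be read as 3 cultures each split between EVs and medium, or as separate cultures.

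C-type lectin receptors are surface proteins that bind sugars, lipids or self ligands of damaged cells. Activating members signal through an immunoreceptor tyrosine-based activation motif, carried by the adaptors FcRγ and DAP12 or in the receptor's own tail, to the kinase SYK and the CARD9-BCL10-MALT1 complex. Inhibitory members carry an inhibitory motif that recruits the phosphatases SHP-1 and SHP-2. A further kind mainly takes up glycoproteins. In tissues these receptors are best known on monocytes, macrophages, dendritic cells and neutrophils.

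Libraries held between 23697620 and 37874426 estimated counts. Defining eosinophil markers were abundant in every sample, with Prg2, encoding major basic protein, at 558759 normalized counts or more and Epx, encoding eosinophil peroxidase, at 129430.0 or more, and 7 of 10 such markers were higher with EVs. Of 14 monocyte and macrophage markers, 10 were lower and 2 were higher with EVs, and none was at 0 in a whole group. Sham replicate 1 stood apart from the other sham samples by its low macrophage markers, with the exception of Adgre1, Ly6c2 and Ccr2. The values it touches are given with the receptors below. In bulk RNA, fewer cells of a type and less RNA per cell cannot be told apart. The paper reports that EVs from activated T cells raised the survival of cultured eosinophils over untreated cells. The mix of living cells may therefore differ between EV and sham cultures. The part of such a difference in the levels given here was not tested.

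Gene changes below come from edgeR's quasi-likelihood test, with p-values adjusted by the Benjamini-Hochberg method over all 13498 genes tested, and a gene is called higher or lower at an adjusted p under 0.01. Levels are normalized counts, which are counts divided by each sample's scaled library size. Of the 10 receptors, 3 were lower (Clec4d, Clec4e and Clec4n) and 1 was higher (Mgl2). Over all genes tested, 11.6% were called lower, 12.1% higher and 23.7% either way. All 4 called receptors also passed a log2 fold change of 1, which 6.35% of all genes did downward and 3.10% upward. The median log2 fold change was -0.50 over the 10 receptors and -0.0140 over all genes tested. In 6 receptors all EV samples lay below all sham samples (24.7% of all genes did so), in 3 all lay above (24.8% of all genes), and in 1 the groups overlapped. Over all genes, 49.6% did not overlap in either direction. The plot of levels by sample shows all 10 genes.

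**Figure D1:**
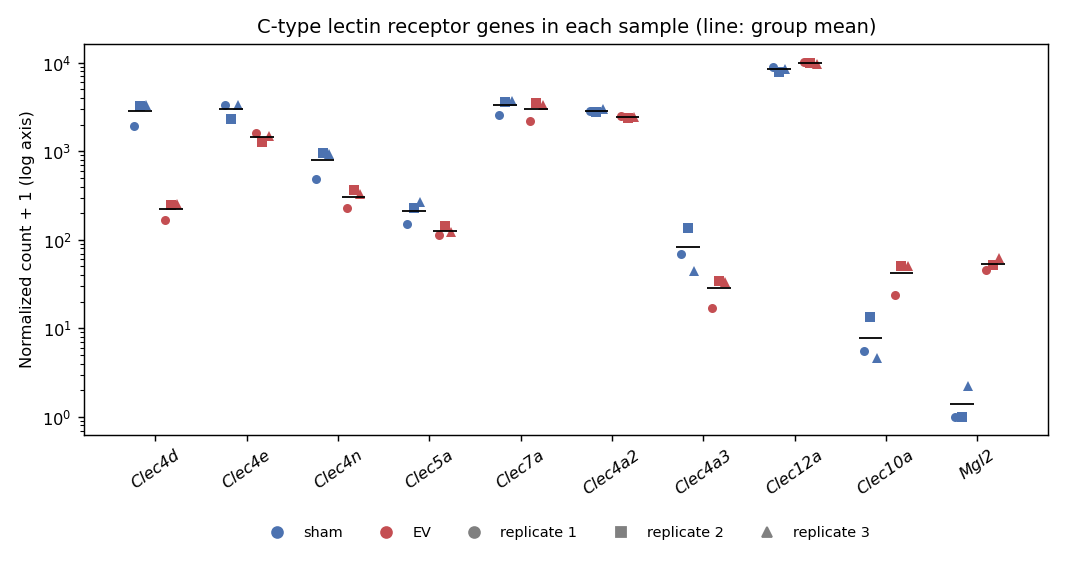
Normalized count plus 1 (log axis) of the 10 C-type lectin receptor genes in each of 3 sham (blue) and 3 EV (red) samples, with the replicate shown by the marker and the group mean by a line. Clec4d fell from a mean of 2829 to 220.2, Mgl2 was at 0, 0 and 1.22 in sham samples and at 45.0 to 61.8 in EV samples, and the groups overlapped for Clec7a alone.

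The start regions of the called receptors were examined. The 3 that fell are neighbours on chromosome 6, and Mgl2, the 1 that rose, lies on chromosome 11. All members except Mgl2 and Clec10a lie on chromosome 6. Clec4a2 and Clec4a3, which were not called, lie in the same stretch as the 3 that fell. The shared position is thus largely set by the choice of members. RefSeq promoter sequences (GRCm38.p6) matched 8 of the 10 receptors, and Clec4n and Clec10a are named only. Each line is the 250 bases before the annotated start, read along the gene, and capitals mark the motifs searched on both strands. They lie at chr6:123261857-123262106 (plus strand) for Clec4d, chr6:123289872-123290121 (minus strand) for Clec4e and chr11:70130107-70130356 (plus strand) for Mgl2.
Clec4d: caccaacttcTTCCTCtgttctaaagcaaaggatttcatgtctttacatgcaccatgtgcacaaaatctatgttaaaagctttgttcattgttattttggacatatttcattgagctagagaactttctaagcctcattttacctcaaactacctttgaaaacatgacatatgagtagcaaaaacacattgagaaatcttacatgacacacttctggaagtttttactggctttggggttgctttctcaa
Clec4e: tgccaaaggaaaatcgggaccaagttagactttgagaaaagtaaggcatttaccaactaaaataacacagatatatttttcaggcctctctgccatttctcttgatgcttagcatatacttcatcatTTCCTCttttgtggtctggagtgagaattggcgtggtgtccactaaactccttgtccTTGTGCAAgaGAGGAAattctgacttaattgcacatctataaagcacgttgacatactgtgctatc
Mgl2: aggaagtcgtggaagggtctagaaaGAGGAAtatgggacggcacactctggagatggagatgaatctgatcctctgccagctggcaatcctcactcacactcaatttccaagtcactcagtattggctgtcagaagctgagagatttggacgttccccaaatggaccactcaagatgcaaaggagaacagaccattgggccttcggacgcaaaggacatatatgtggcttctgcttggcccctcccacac
The motifs searched were GAGGAA (the core that PU.1 binds), TTGCNNAA (C/EBP), TTCNNNGAA (STAT) and the same arms TTC and GAA set 4 bases apart (STAT6). Clec4e held TTGTGCAA, a match to the C/EBP letters, 66 bases before its start, with a GAGGAA match on either side at 123 and 56 bases. Clec4d and Mgl2 each held 1 GAGGAA match, at 240 and 225 bases. None of these 3 windows held the STAT or STAT6 letters, which were found in Clec4a2 (STAT) and in Clec5a and Clec7a (STAT6). The 8 receptors had 10 windows, since Clec4a3 and Clec7a each had a pair of overlapping ones. Of these 10 windows 8 held GAGGAA, 2 the C/EBP letters, 1 the STAT letters and 3 the STAT6 letters. The overlapping Clec7a windows hold the same STAT6 and GAGGAA matches, which are thus counted more than once. By receptor, 7 of 8 held GAGGAA, 2 the C/EBP letters, 1 the STAT letters and 2 the STAT6 letters. Among all 32851 promoter windows the shares were 23.3%, 9.56%, 7.02% and 5.85%. A match to letters is a description of the sequence and says nothing of binding.

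The 3 members that fell are FcRγ-coupled receptors of the Dectin-2 gene cluster. Clec4d, encoding MCL, which pairs with Mincle at the cell surface, showed the largest fall of the 10 receptors. It had 1939.9, 3219.5 and 3328 normalized counts in sham replicates 1 to 3 and 165, 246 and 249.8 in EV replicates 1 to 3. The highest EV sample was thus far below the lowest sham sample. Means were 2829 ± 772 in sham and 220.2 ± 48.0 in EV samples (SD, n = 3 each), and the log2 fold change was -3.67 with a standard error (SE) of 0.228 (adjusted p = 1.55e-06). The EV mean was 7.78% of the sham mean.

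Clec4e encodes Mincle, a receptor for the mycobacterial cord factor and for a nuclear protein released by dying cells. It lies next to Clec4d, 6.523 kb away, on the opposite strand. Its level was 3342, 2322 and 3334 in sham samples and 1615, 1273 and 1479 in EV samples. The groups did not overlap, and the fall was smaller than that of Clec4d. Means were 2999 ± 586 in sham and 1456 ± 172 in EV samples (SD, n = 3 each), with a log2 fold change of -1.04 (SE 0.141) and an adjusted p of 0.000263.

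Clec4n encodes Dectin-2, a receptor for fungal α-mannans. Its level was 481, 963 and 936 in sham samples and 225, 363 and 327 in EV samples. Sham replicate 1 was the lowest of its group, at 60.6% of the sham mean, and was still above every EV sample. The log2 fold change was -1.37 (SE 0.265) at an adjusted p of 0.00259. In this fit the call rests on single samples. Without sham replicate 2, sham replicate 3 or EV replicate 3 the adjusted p was 0.0121, 0.0153 and 0.0127. The log2 fold changes were then -1.21, -1.23 and -1.42. With same-numbered samples fitted as blocks in edgeR, the log2 fold change was -1.35 (SE 0.139) at an adjusted p of 6.69e-07. DESeq2 without blocks gave an adjusted p of 8.54e-07.

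Because counts of genes in 1 library share its scaling, ratios of counts between receptors were also compared sample by sample. The ratio of Clec4d to Clec4e counts was 0.580, 1.39 and 0.998 in sham samples and 0.102, 0.193 and 0.169 in EV samples. The ratio of Clec4d to Clec4n counts was 4.03, 3.34 and 3.56 in sham samples and 0.733, 0.678 and 0.763 in EV samples. Neither ratio overlapped between groups, and in these samples Clec4d fell more than both of its neighbours. The ratio of Clec4n to Clec4e overlapped, at 0.144 to 0.415 in sham and 0.139 to 0.285 in EV samples. In exact two-sided permutation tests over samples (n = 3 per group), the first and second ratios gave p = 0.1, the smallest that 3 against 3 allows (0.125 adjusted over 5 ratios), and the third gave p = 0.6.

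**Figure D2:**
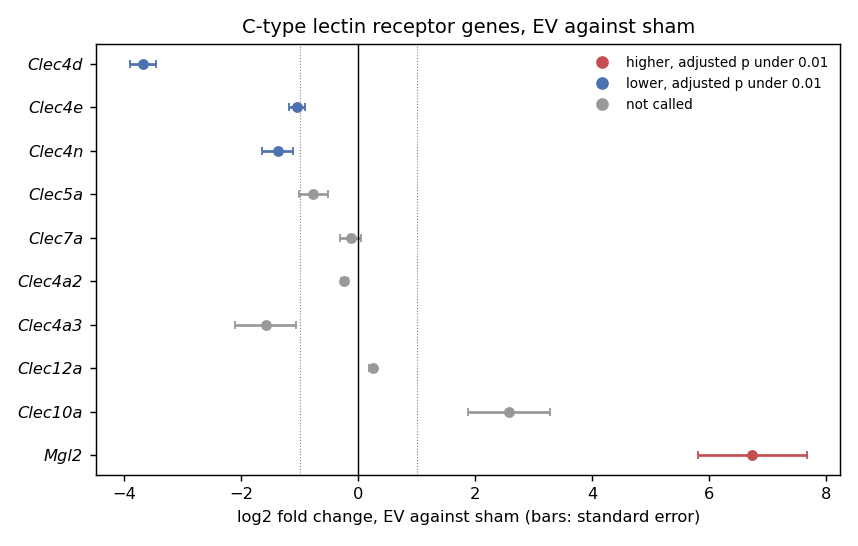
Log2 fold change, EV against sham, of the 10 receptor genes with standard errors, from edgeR's quasi-likelihood test; dotted lines mark 1 and -1. Clec4d, Clec4e and Clec4n are called lower and Mgl2 higher, and the fitted value of Mgl2 (6.74) depends on how its near-zero sham counts are treated.

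The Dectin-2 cluster on chromosome 6 allowed these genes to be set beside their neighbours. The stretch examined was bounded by the members Clec4a3 and Clec4e and may not be the whole cluster. In GRCm38 it runs from Clec4a3 (chr6:122952515-122969875) through Clec4a4, Clec4b1, Clec4a2, Clec4b2, Clec4n (chr6:123229843-123247021) and Clec4d (chr6:123262111-123275265) to Clec4e (chr6:123281789-123289870). The 3 called genes are the last 3 in this order, in a stretch that was cut at the member Clec4e. Clec4a3, the first, was not called, but its log2 fold change of -1.58 was larger in size than those of Clec4n (-1.37) and Clec4e (-1.04). The neighbour Clec4b2 had 533, 326 and 539 normalized counts in sham samples and 369.6, 418 and 407 in EV samples, and the groups overlapped. Clec4a4 and Clec4b1 had too few counts to be tested. Mean levels were 2.10 in sham and 2.94 in EV samples for Clec4a4, and 18.1 and 4.46 for Clec4b1. The groups overlapped for both. Clec4a1, a related gene whose position was not examined, had 74.8, 55.1 and 82.6 normalized counts in sham samples. It had 22.0, 25.7 and 27.9 in EV samples. Its log2 fold change was -1.49 (SE 0.407) at an adjusted p of 0.0170, which was not called.

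Clec4a2, in the middle of the cluster, encodes the inhibitory receptor DCIR1. Its level was 2831, 2795 and 2973 in sham samples and 2479.6, 2392 and 2434 in EV samples. The samples of each group lay close together and did not overlap, and the difference was small. The log2 fold change of -0.24 (SE 0.0609) had an adjusted p of 0.0128 and was not called. Clec4a3, of the same DCIR family, was scarce. It had 67.6, 135 and 43.7 normalized counts in sham samples and 16.0, 33.4 and 32.2 in EV samples, with a log2 fold change of -1.58 (SE 0.520) at an adjusted p of 0.0380, which was not called.

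**Figure D3:**
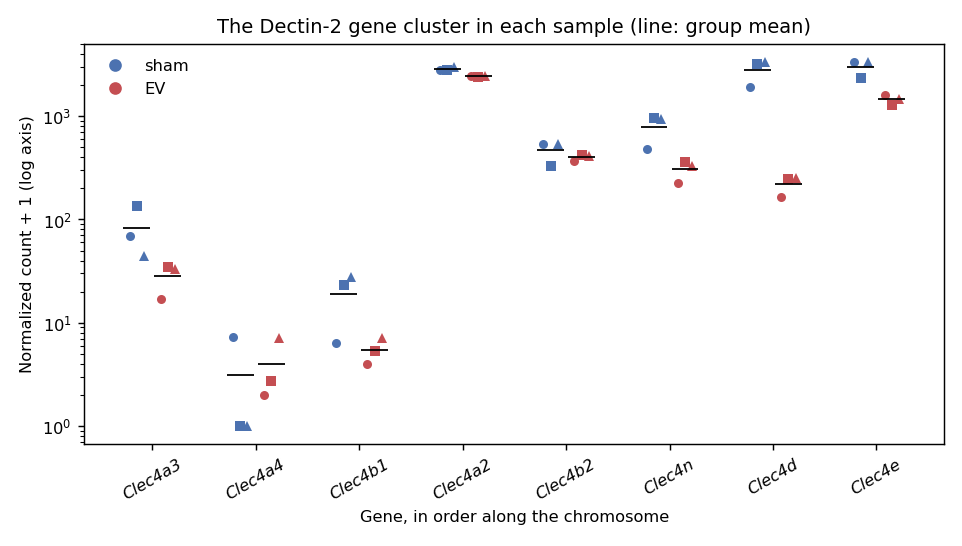
Normalized count plus 1 (log axis) of the 8 genes from Clec4a3 to Clec4e in the Dectin-2 cluster, in chromosomal order, in 3 sham (blue) and 3 EV (red) samples with group means as lines. The separation is widest for Clec4d, from 2829 to 220.2, while Clec4a2 (2867 and 2435) and Clec4b2 (466 and 398) lie close to their sham level.

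The activating receptors outside this cluster were not called. Clec5a encodes MDL-1, which signals through DAP12 and binds dengue virus. Its level was 149.6, 226 and 264 in sham samples and 111, 142 and 121 in EV samples. EV replicate 2 lay just under sham replicate 1, and the log2 fold change of -0.77 (SE 0.245) had an adjusted p of 0.0340. Clec7a encodes Dectin-1, the receptor for fungal β-glucans, which has an activation motif in its own tail, and its locus is listed as a polymorphic pseudogene in the GENCODE annotation. Its level was 2544, 3619 and 3746 in sham samples and 2213, 3513 and 3322 in EV samples. Replicate 1 was the lowest in both groups, as it was for Clec4d and Clec4n, and the groups overlapped. The log2 fold change was -0.13 (SE 0.181) at an adjusted p of 0.626.

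Clec12a encodes MICL, an inhibitory receptor that binds uric acid crystals. It had the highest level of the 10 receptors. Its normalized counts were 8982, 7879 and 8413 in sham samples and 10272, 9983 and 9805 in EV samples, all EV samples above all sham samples. The log2 fold change of 0.25 (SE 0.0618) missed the threshold narrowly, at an adjusted p of 0.0102. It depended on the scaling, and with library sizes only, without TMM, it was 0.10 at an adjusted p of 0.205 in edgeR's test. The ratio of Clec12a to Clec4a2 counts, which compares the 2 abundant inhibitory receptors within each library, lay between 2.82 and 3.17 in sham and between 4.03 and 4.17 in EV samples (exact two-sided permutation p = 0.1, the smallest possible, n = 3 per group). The ratio of Clec4d to Clec4a2 lay between 0.685 and 1.15 in sham and between 0.0665 and 0.103 in EV samples, with the same p.

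The galactose-binding receptors lay at the other extreme of level and direction. Mgl2 and Clec10a encode MGL2 and MGL1, paralogs that take up glycoproteins with terminal galactose or N-acetylgalactosamine. They are neighbours on chromosome 11, at chr11:70130329-70137550 and chr11:70156197-70170834, 18.646 kb apart. Mgl2 had 0, 0 and 1 counts in sham libraries and 45, 59 and 71 counts in EV libraries. It was thus nearly undetected in sham and low but present in every EV sample. The summed counts, 1 against 175, gave a ratio of 145 after scaling, with an exact 95% interval of 25.7 to 5761 that covers counting error only. The adjusted p was 0.000303 from edgeR's quasi-likelihood test.

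Clec10a had 5, 10 and 3 counts in sham libraries and 23, 58 and 57 in EV libraries. In normalized counts this was 4.51, 12.3 and 3.65 against 23.0, 49.7 and 49.6, again without overlap. The log2 fold change was 2.58 (SE 0.699) at an adjusted p of 0.0161, which was not called. Of the 31-base words in Mgl2 transcripts, 19.3% also occur in Clec10a, and 13.7% of those of Clec10a occur in Mgl2, so that a part of the reads could be assigned to either gene. The share of words that occur in any other gene was 22.6% in Mgl2 and 14.8% in Clec10a. Among the other receptors that share was highest in Clec4a2, at 10.3%, and it was 0% in Clec4d and Clec4e.

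To compare receptors with each other, normalized counts were divided by the length of the longest coding transcript in GENCODE vM21. In sham samples the order per kb was Clec12a at 3367, Clec4d at 2138, Clec7a at 1451, Clec4e at 1191, Clec4a2 at 1155 and Clec4n at 646 normalized counts per kb. Clec4a3 and Clec5a followed at 63.1 and 56.8, and Clec10a and Mgl2 were last at 2.92 and 0.248. Ranges over the sham samples overlapped between Clec4d and Clec7a, Clec7a and Clec4e, Clec4e and Clec4a2, and Clec4a3 and Clec5a, so those neighbours cannot be ordered. In EV samples Clec12a was again first at 4005 per kb, ahead of Clec7a at 1324 and Clec4a2 at 982, whose ranges overlapped. Clec4e followed at 578. Clec4d was in place 6 at 166 per kb, below Clec4n at 248, and these ranges overlapped too. Mgl2, at 32.1 per kb, was in place 8, level with Clec5a at 33.3, with overlapping ranges, and ahead of Clec4a3 at 20.9 and Clec10a at 17.5, which overlapped each other.

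Most macrophage markers moved with part of these receptors, both between groups and among replicates. The summed level of the 14 monocyte and macrophage markers was 95861 in sham replicate 1 and 142815 to 143755 in sham replicates 2 and 3, against 72034 to 80350.5 in EV samples. Lyz2, encoding lysozyme, was 38591, 70196 and 69793 in sham and 4568, 6755 and 7104 in EV samples. In sham replicate 1 it was at 64.8% of the sham mean, and Clec4d, Clec4n, Clec5a and Clec7a were at 68.6%, 60.6%, 70.2% and 77.0% of theirs. Clec4e, Clec4a2 and Clec12a were at 111%, 98.8% and 107% in the same sample. With EVs, Lyz2 and Cd14 were at 7.67% to 11.9% and 8.18% to 10.7% of the sham mean, near Clec4d at 5.83% to 8.83%. Clec4e was at 42.4% to 53.9% and Clec7a at 67.0% to 106%. The 2 markers called higher were Adgre1, encoding F4/80, at 150.4% to 157% of the sham mean and Ly6c2, a monocyte surface antigen gene, at 236% to 273%. Together with Lyz2 they make up most of the summed level. The sum therefore fell less than most of the 14 markers, whose median log2 fold change was -2.48. The part of macrophage RNA in the receptor changes was not tested.

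**Figure D4:**
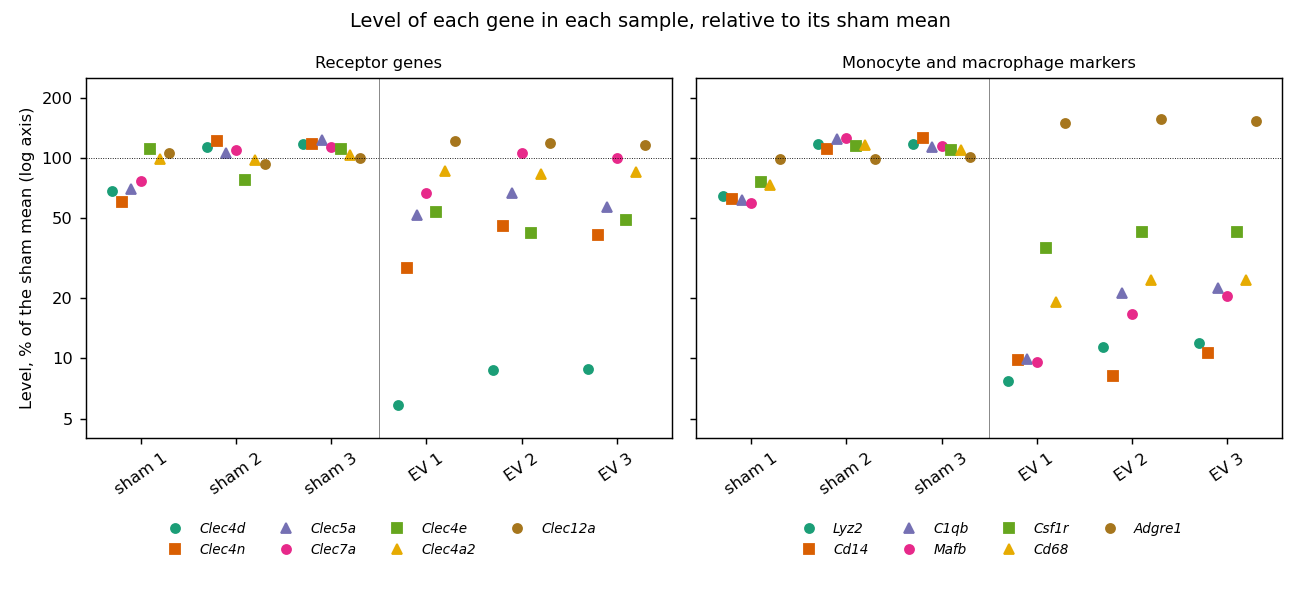
Level of 7 receptor genes (left) and 7 monocyte and macrophage markers (right) in each sample as a percent of the gene's sham mean (log axis, dotted line at 100%). In sham replicate 1 Clec4d is at 68.6% and Lyz2 at 64.8%, in EV samples Lyz2 is at 7.67% to 11.9%, Csf1r at 35.5% to 42.9% and Clec4d at 5.83% to 8.83%, and Clec12a is at 116% to 122%.

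Markers of other cells that carry these receptors were measured too. Of 9 neutrophil markers tested, 5 were lower and 2 higher with EVs; Mmp8 and S100a9, which encode a collagenase and a calprotectin subunit, had log2 fold changes of -1.68 and -0.90, and Ly6g and Cxcr2 were the higher ones. The summed neutrophil markers were 15412 to 17813 in sham and 13646 to 14665 in EV samples. Of 6 dendritic cell markers tested none was called by edgeR, with 1 at an unadjusted p under 0.05, and Itgax and H2-Ab1 had log2 fold changes of 0.17 and -0.91. Their sum was 5703 to 7225 in sham and 5666 to 7374 in EV samples. Of 6 basophil and mast cell markers tested 4 were higher, Gata2 and Cpa3 among them at 1.07 and 1.30, with sums of 4101 to 5233 in sham and 9891 to 11712 in EV samples. Of the T cell markers, Cd3d reached 71.1, Cd4 34.3, Trac 15.8 and Cd3g 6.00 normalized counts in their highest sample. The T cell markers summed to 824 to 1219 in sham and 899 to 959 in EV samples, mostly from Il4, which was called higher (log2 fold change 0.93), and Cd28, which was called lower (-3.70). Their part in the receptor changes was not tested either.

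Other C-type lectin receptors were measured from a list of 37, of which 26 were in the table and 20 could be tested. Of these 20, 5 were higher and 5 were lower with EVs, where 12.1% and 11.6% of all genes tested were. Cd69, an early activation antigen, was at 556 ± 43.8 in sham and rose to 6085 ± 384 in EV samples (SD, n = 3 each), by 3.45 on the log2 scale (adjusted p = 6.6e-09). Klrb1f, a natural killer receptor gene, rose by 0.88 on the log2 scale, and Clec2d and Olr1 were also higher. Cd72, an inhibitory receptor of B cells and myeloid cells, had a log2 fold change of -2.22 and went from 707 ± 150.2 to 151 ± 29.6 (SD, n = 3). Cd302 had a log2 fold change of -2.15. Cd207, encoding langerin, was at 14.4, 55.1 and 30.4 in sham samples and at 3.00, 1.71 and 0 in EV samples (adjusted p = 0.00733). Its call was lost without the low-count filter (adjusted p = 0.0130) and without any 1 sample other than sham replicate 1, at adjusted p of 0.0257 and 0.0211 without sham replicates 2 and 3 and 0.0222, 0.0443 and 0.0402 without EV replicates 1, 2 and 3. Thbd and Cd93 were the other lower genes. The median log2 fold change of the 20 genes was -0.38.

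Downstream of the receptors, 7 of 19 signalling genes were higher with EVs and none was lower in edgeR's test. Among all genes tested 12.1% were called higher and 11.6% lower. Without TMM scaling 3 of the 19 were lower (Vav1, Card9 and Malt1) and 5 higher, Tyrobp and Hcst no longer being called. At an unadjusted p under 0.05 in edgeR's test, 10 were higher and 4 lower, where 6008 of all 13498 genes tested passed in either direction. DESeq2 called 1 of the 19 lower, Src, a kinase. In edgeR's test no called gene of the 19 passed a log2 fold change of 1 in either direction, while Src passed it as a called gene with DESeq2. The median log2 fold change was 0.14.

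The adaptors differed from each other. Fcer1g, encoding FcRγ, the partner of the receptors that fell, was 7034, 6449 and 7253 in sham samples and 7341, 6757 and 7626 in EV samples. The groups overlapped, with a log2 fold change of 0.0671 (SE 0.0687) at an adjusted p of 0.493. Tyrobp, encoding DAP12, was 22871, 22722 and 23916 in sham samples and 27451, 28891 and 30829.6 in EV samples, all EV samples above all sham samples (log2 fold change 0.33, adjusted p = 0.00143). Hcst, encoding DAP10, was higher by 0.54 on the log2 scale (adjusted p = 0.00583). This call was lost without any 1 sample other than sham replicate 1, at adjusted p of 0.0181 and 0.0170 without sham replicates 2 and 3 and 0.0112, 0.0131 and 0.0372 without EV replicates 1, 2 and 3.

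Of 10 kinases, phospholipase and exchange factor genes, 4 were higher. Fgr, a SRC-family kinase of myeloid cells, was at 2587 ± 82.2 in sham and 4983 ± 277 in EV samples (SD, n = 3 each), higher by 0.95 on the log2 scale (adjusted p = 3.22e-06). Plcg2, the phospholipase downstream of SYK, and Prkcd, the kinase that activates CARD9, had log2 fold changes of 0.43 and 0.47. Syk itself had 0.14 (adjusted p = 0.0836). Of the CARD9-BCL10-MALT1 genes none was called, with log2 fold changes of -0.18 for Card9, 0.13 for Bcl10 and -0.22 for Malt1. Of 3 phosphatase genes 1 was called. Ptpn6, encoding SHP-1, which inhibitory lectins recruit, was at 7902 ± 425 in sham and 12392 ± 383 in EV samples (SD, n = 3 each), higher by 0.65 on the log2 scale (adjusted p = 1.87e-05). Ptpn11, encoding SHP-2, had 0.35 with an adjusted p of 0.0120 and was called higher in 5 of 12 alternatives, DESeq2 and limma among them.

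**Figure D5:**
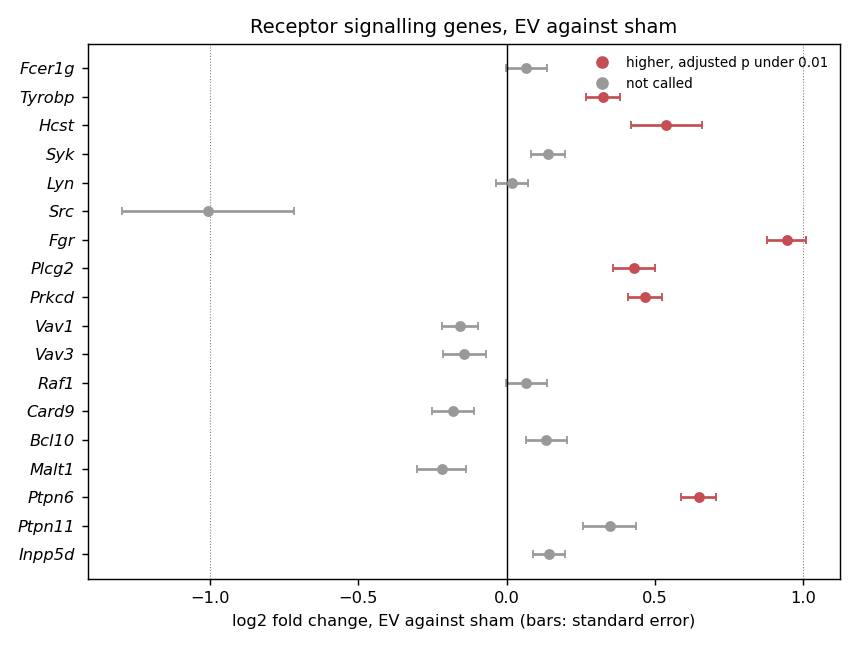
Log2 fold change, EV against sham, of 18 of the 19 receptor signalling genes with standard errors, from edgeR's quasi-likelihood test; dotted lines mark 1 and -1. The 6 called genes shown lie between 0.33 (Tyrobp) and 0.95 (Fgr), and Fcer1g lies at 0.0671.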

How the data were processed

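RNA was measured by poly(A) RNA sequencing of 3 sham- and 3 EV-treated eosinophil cultures, grouped by the sample labels. The authors checked reads with FastQC, trimmed them with Cutadapt and quantified them with Salmon. The submitters' processing notes name mm10, and annotation and strand setting are not given in the sources used here. The authors deposited Salmon's estimated counts per gene. They also deposited normalized counts, a signal which, multiplied by the sample's size factor and rounded to a whole number, gave the rounded count with 1 added in 97518 of 97524 values. A deposited table of the authors' own comparison (fold changes and p-values) was not used.

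Estimated counts were rounded, filtered with filterByExpr, scaled by TMM and tested with edgeR 4.0.16 (quasi-likelihood) in R 4.3.3. The alternatives were DESeq2 1.42.0, run on the rounded counts, and limma 3.58.1, run on log2 values of the deposited normalized counts with 1 added. Standard errors are the log2 fold change over the square root of F. The scripts were tested on simulated counts. Gene positions are GENCODE vM21 (GRCm38, the assembly of mm10), and promoters are RefSeq GRCm38.p6.

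The members and lists were chosen with earlier results of these data known. Genes named are all members, all called signalling genes, the 3 highest and 3 lowest called other lectins, and the 2 most abundant markers of each list. Other genes named, such as the cluster neighbours, Cd14 and the markers plotted beside the receptors, were chosen after their values were seen. Some genes that this rule names are counted in their lists but not reported here by name.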

Additional observations from a re-analysis of the deposited data

How the results depend on the processing

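Clec4d, Clec4e and Mgl2 were called in all 12 alternatives (other scalings, tests and filters, the block, and each sample left out), with log2 fold changes of -3.88 to -3.50, -1.20 to -0.95 and 4.46 to 8.79. Clec4n was called in 9, Clec12a in 5, Clec4a2 and Clec10a in 2, Clec5a in 1, and Clec4a3 and Clec7a in 0. Clec7a lay between -0.28 and 0.0582 with a sample left out and turned sign only without EV replicate 1. Clec5a was called only without sham replicate 1 (-0.96, adjusted p = 0.00534). Receptors called higher were 3 with DESeq2 and 2 with limma, without a filter and with the replicate block, each adding Clec12a; at an adjusted p under 0.05, 3 were higher and 6 lower, where 2362 and 2478 of the 13498 genes tested were. Without a sample, 1 to 2 receptors were higher and 2 to 4 lower. Other lectins called lower were 8 without TMM and 9 at an adjusted p under 0.05, and 4 to 5 without a sample; those called higher were 2 with a log2 fold change of 1. Signalling genes called lower were 3 without TMM and 1 with DESeq2, with the replicate block and at an adjusted p under 0.05 (Src in these 3 settings, -1.04 with the block), and 0 to 1 without a sample; the block also called Ptpn11 higher (0.35, adjusted p = 0.00187); those called higher were 0 with a log2 fold change of 1. Without TMM the median log2 fold change of all genes was -0.16 in place of -0.0140, and genes called higher were 1036 against 1632, with 2342 lower against 1572. Over all genes, 419 were higher and 857 lower with a log2 fold change of 1, and between 1071 and 1833 higher and 1018 and 1698 lower without a sample, the lowest counts without EV replicate 3. The cause of these moves was not tested. Same-numbered samples' deviations correlated across genes at 0.117, 0.0846 and 0.0371. Such weak correlations cannot tell whether the samples were paired. The main fit did not pair them. EV replicate 3 correlated best with sham replicate 2, and the other samples with their own number. The replicate block lowered the standard errors of Clec4d, Clec4e, Clec4n, Clec5a and Clec7a. It raised those of Clec4a2, Clec4a3, Clec10a, Clec12a and Mgl2. With 3 samples per group, precision is limited for Mgl2 and Clec10a by counts near 0 in sham libraries.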
